A study of Mus musculus with 3 samples.

Results

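Capillary endothelial nuclei of mouse brown adipose tissue (BAT) were chosen by their own UMI counts, as 4636 of the 44897 barcodes in the data (2176 untreated, 1827 sham and 633 denervated). A UMI, or unique molecular identifier, marks 1 captured RNA molecule, so that amplified copies are counted once. A barcode was kept with 200 or more genes detected and no more than 50% of its UMIs from mitochondrial genes, which left 36281. A member had at least 3 UMIs over Pecam1, Flt1, Kdr, Ptprb, Cyyr1 and Adgrl4 together (the endothelial sum), and this sum was at least 4 times the sum over the adipocyte genes Adipoq, Plin1, Pparg, Cidea and Ppara and at least 4 times the sum over the mural genes Pdgfrb, Notch3, Abcc9 and Kcnq5. A member also had 0 UMIs in the arterial genes Alox12, Sema3g and Gja5, the venous genes Vwf and Selp, the interferon-induced genes Ifit1, Oasl2 and Gvin1, and the genes of immediate early response, Fos, Egr1 and Nr4a1. The levels of these 26 genes were thus fixed by the choice and are not results, and the capillary name rests on the absence of other genes together with the markers described next.

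The nuclei came from interscapular BAT of adult wild-type (WT) C57Bl6 mice, as the labels give them, which the study describes as male C57BL/6J mice. They were sorted from the floating layer of digested tissue, which holds adipocytes and pieces of vessel, and read as whole transcriptomes with BD Rhapsody cartridges. There were 3 libraries, 1 each labelled non-treatment (untreated), sham operation and denervation. Per the study's results, denervated BAT was taken 3 days after the sympathetic nerves of 1 side were cut. A legend of the study also names tamoxifen for the denervated mice, which the labels do not. The sources do not say whether the sham library came from separate mice. The header of the denervated table names its run nKO and that of the untreated table nC. What nKO stands for is not given, the labels give WT for all 3 samples, and the genotype of the denervated library was not tested, which bears on every ratio that uses it. With 1 library per condition there was no replicate, so no test between conditions was possible, no p-value is given, and a difference between conditions cannot be told apart from a difference between libraries.

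Capillaries are the smallest vessels, lined by a single layer of endothelial cells wrapped by pericytes in a shared basement membrane. In BAT they bring oxygen and fuel to thermogenic adipocytes, and their endothelial cells anchor lipoprotein lipase, take up fatty acids and pass them on, and release signals to neighbouring adipocytes. One such signal is stem cell factor, the product of Kitl, whose receptor c-Kit the study followed in brown adipocytes after denervation.

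The libraries held 14971579 (untreated), 14725864 (sham) and 9420030 (denervated) UMIs, and their mitochondrial shares ranged from 2.95% to 12.9%. Capillary nuclei had a median of 681.5, 495 and 370 UMIs, a median endothelial sum of 9, 6 and 5 UMIs, and a summed depth of 1525849, 1031823 and 278627 UMIs in the untreated, sham and denervated libraries. The rule needs UMIs to be met, so the number of members per library moves with depth and is not compared. Between 251 and 278 cell barcodes were shared by each pair of libraries, of which at most 7 were members in both. The sham library stood apart in genes of the heat-shock, glucocorticoid-responsive and adipocyte lists, as described below, and each result on denervation is therefore given against the untreated and the sham library separately. Those ratios share the denervated library and are not independent of each other. Levels are given in CPM, the summed UMIs of a gene over the summed UMIs of the nuclei, with exact 95% Poisson intervals, and ratios carry exact conditional binomial intervals. Both cover counting error only. Between libraries, a gene is called higher or lower when its CPM ratio was at least 2-fold and its interval excluded equality. Between classes of nuclei, genes were counted by a ratio of at least 2-fold in all 3 libraries, without regard to the interval. Between the capillary nuclei of 2 libraries the median log2 ratio over 2016 well-counted genes was -0.01 for denervated over untreated, 0.15 for denervated over sham and -0.13 for sham over untreated, so small ratios against the sham library sit on such an offset.

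The capillary nuclei carried vessel markers that the rule did not use. Of 7569 genes with enough UMIs to compare, 576 (7.61%) were at least 2-fold higher in capillary nuclei than in both brown adipocyte and pericyte nuclei of the same library in all 3 libraries. Brown adipocyte and pericyte nuclei were those with at least 3 UMIs in the adipocyte or the mural sum of the rule and with that sum at least 4 times each of the other sums. The genes higher in capillary nuclei included 9 of 11 genes of a capillary list and 12 of 12 of a pan-endothelial list. Because the nuclei were chosen by endothelial RNA, this describes the members and is no test of them. Aqp1, which encodes the water channel of capillary endothelium (GRCm38 chr6:55336432-55348555, plus strand), led the ranking by the smallest ratio over classes and libraries. Its level in capillary nuclei was 4319.6 CPM (95% interval 4216 to 4425) in the untreated, 3459.9 (3347 to 3575) in the sham and 3840.3 (3614 to 4077) in the denervated library. In brown adipocyte nuclei of the same libraries Aqp1 was at 151, 119.7 and 85.9 CPM, and in pericyte nuclei at 123, 122 and 115 CPM. It stood in all 3 libraries more than an order of magnitude above both other classes.

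The genes next in that ranking were Podxl (a sialomucin of the luminal membrane), Mcf2l, the long noncoding RNA Gm12002, Ablim3, Fgd5 (an exchange factor for Cdc42 in endothelium), Bcl6b, Mmrn2 (an endothelial matrix protein), Ccdc88c, Btnl9, Rasip1 (needed for vessel lumens) and Pdgfb (the ligand that recruits pericytes). Podxl stood at 486, 308 and 553 CPM in capillary nuclei of the untreated, sham and denervated libraries against 11.9, 12.2 and 13.1 CPM in brown adipocyte nuclei. Pdgfb stood at 467, 278 and 477 CPM against 11.5, 9.33 and 6.81 CPM. The capillary list genes that did not reach 2-fold everywhere were Rgcc, a cell-cycle regulator often used as a capillary marker, and Timp4, a metalloproteinase inhibitor. Rgcc was at 1053, 1043 and 904 CPM in capillary nuclei and at 724, 1051 and 966 CPM in brown adipocyte nuclei, so it did not separate these classes in BAT, whereas pericyte nuclei held 40.2, 52.6 and 103 CPM. Timp4 was at 689, 561 and 524 CPM in capillary nuclei and at 312, 313 and 134 CPM in pericyte nuclei.

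To show the sequence from which the leading marker is transcribed, the promoter of Aqp1 is given together with that of Btnl9, the one identity gene among those read whose promoter held a searched motif. Both are the 250 bases before the RefSeq start nearest to the gene's annotated 5′ end on GRCm38.p6, written 5′ to 3′ on the gene's strand. Capitals mark a match to GGAAGT, a core recognised by ETS factors of the endothelium, on either strand. GTAAACA, the core of forkhead factors, was also searched on both strands, and neither motif contains the other.
Aqp1 (chr6:55336049-55336298, plus strand): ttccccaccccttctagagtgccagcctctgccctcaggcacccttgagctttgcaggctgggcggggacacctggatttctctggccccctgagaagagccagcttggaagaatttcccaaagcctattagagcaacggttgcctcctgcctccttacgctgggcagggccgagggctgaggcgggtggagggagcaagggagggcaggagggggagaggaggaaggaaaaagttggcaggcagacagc
Btnl9 (chr11:49187090-49187339, minus strand): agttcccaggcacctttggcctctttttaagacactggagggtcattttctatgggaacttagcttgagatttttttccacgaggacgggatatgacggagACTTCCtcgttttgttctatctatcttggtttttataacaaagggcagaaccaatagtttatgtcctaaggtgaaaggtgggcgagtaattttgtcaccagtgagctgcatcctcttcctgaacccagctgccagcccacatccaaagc
Of the 12 identity genes, 6 had such a window that was read, and 1 of these held GGAAGT while 0 held GTAAACA. Over all 32851 promoter windows, 19.7% held the first and 3.2% the second, and nothing is read from 1 or 0 of 6 about the factors.

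**Figure D1:**
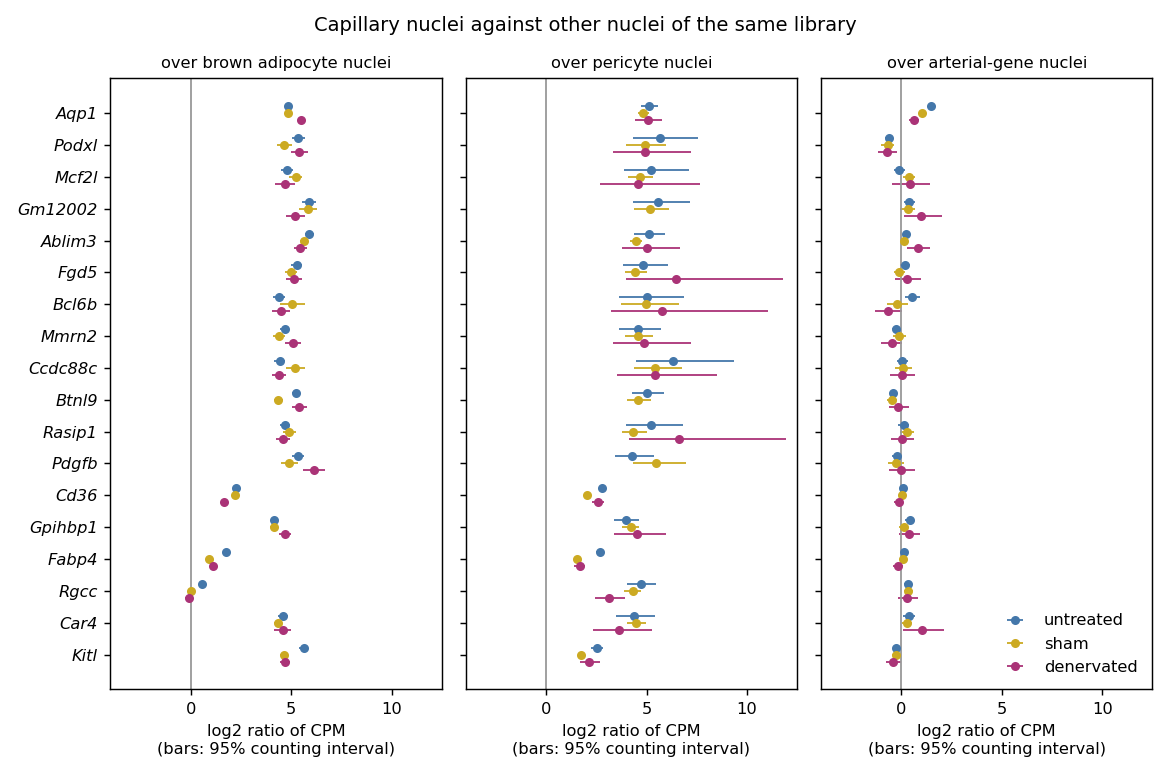
Log2 ratio of CPM of capillary nuclei over brown adipocyte, pericyte and arterial-gene nuclei of the same library, for the 12 identity genes and 6 further genes (rows), with the 3 libraries in colour and exact 95% counting intervals as bars. A point is left out where the other class held 0 UMIs. The identity genes lie well to the right of 0 against adipocytes and pericytes, Rgcc lies near 0 against adipocytes, and against arterial-gene nuclei Aqp1 (1.45, 1.03 and 0.61) and Car4 (0.37, 0.27 and 1.03) are the genes drawn whose intervals lie above 0 in each library.

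Genes of fatty acid handling were among the well-counted transcripts of the capillary nuclei. Gpihbp1, which carries lipoprotein lipase to the capillary lumen, was at 813 CPM (768 to 859) in the untreated, 973 (914 to 1035) in the sham and 839.8 (736 to 955) in the denervated library, against 45.7, 55.6 and 32.6 CPM in brown adipocyte nuclei. Cd36, a fatty acid translocase, was at 5529, 4779 and 3553 CPM in capillary nuclei and at 1179, 1032 and 1129 CPM in brown adipocyte nuclei. Fabp4, a fatty acid binding protein of both cell types, was at 3829, 5224 and 2911 CPM against 1119.9, 2820.1 and 1346 CPM. Lpl itself, made by adipocytes, was at 1361, 1583 and 1159 CPM in capillary nuclei and 1584, 2601 and 1467 CPM in brown adipocyte nuclei, that is, no higher in the capillary nuclei. Over all 9061 genes compared between libraries, 224 (2.47%) were called higher and 88 (0.971%) lower in denervated than in both untreated and sham capillary nuclei. At the low depth of the denervated members a fall is harder to call than a rise, so the higher and lower shares are not set against each other. Of the 13 lipid-uptake genes compared, 0 were called in either direction, which at such shares says little about the list.

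Ligands that endothelium can offer to its neighbours were read in the same way. Kitl stood at 1223 CPM (1168 to 1279.7) in untreated, 1112 (1048 to 1178) in sham and 1034 (918 to 1160.2) in denervated capillary nuclei, and at 24.9, 44.6 and 40.1 CPM in brown adipocyte nuclei. The log2 ratio of denervated over untreated was -0.24 (-0.43 to -0.06) and that over sham was -0.10 (-0.30 to 0.08). Kitl was thus not past 2-fold in capillary nuclei of denervated BAT. Pericyte nuclei also held Kitl. With nuclei thinned to equal depth, as described below, 33.6%, 33.3% and 28.3% of untreated, sham and denervated capillary nuclei held a Kitl UMI. The share was 7.33%, 10.6% and 7.03% in pericyte nuclei and 0.915%, 1.78% and 1.53% in brown adipocyte nuclei. Bmp6, a bone morphogenetic protein of endothelium, was at 613, 863 and 373 CPM in capillary nuclei. Its denervated level was the lowest of the 3, by -0.72 (-1.02 to -0.42) against untreated and -1.21 (-1.52 to -0.91) against sham, the first short of 2-fold. Cxcl12, a chemokine, was at 316, 593 and 341 CPM, highest in the sham library, and pericyte nuclei held more of it, at 963, 1173 and 431 CPM. Of 10 ligand genes compared, 1 was called higher (2.47% over all genes) and 0 lower (0.971%) in denervated capillary nuclei, the called one being Apln, described below.

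**Figure D2:**
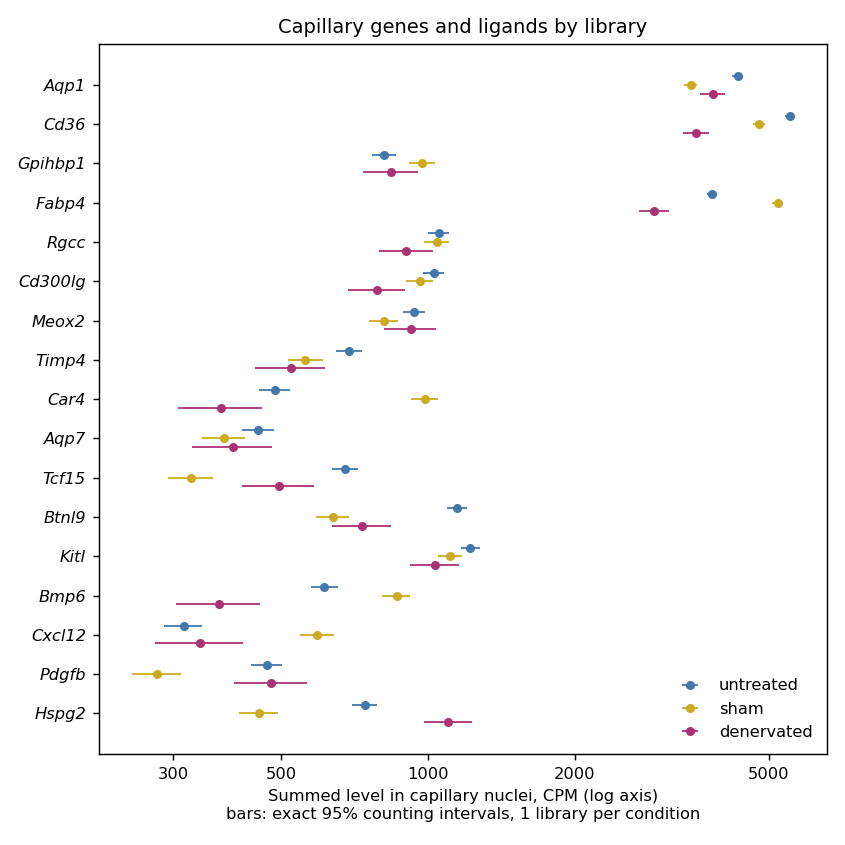
Summed level (CPM, log axis) of capillary genes and endothelial ligands in capillary nuclei of the untreated, sham and denervated libraries, with exact 95% Poisson intervals as bars and 1 library per condition. Cd36 and Fabp4 lie lowest in the denervated library, Car4, Bmp6 and Cxcl12 lie highest in the sham library, and Hspg2 lies highest in the denervated library.

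Few genes were past 2-fold in all 3 libraries between capillary and arterial-gene nuclei of the same library. Arterial-gene nuclei were those that met the endothelial limits and held a UMI of Alox12, Sema3g or Gja5 and of no other exclusion list (396, 292 and 99 nuclei). Of 7569 genes, 11 (0.145%) were at least 2-fold higher and 16 (0.211%) at least 2-fold lower in capillary than in arterial-gene nuclei in all 3 libraries, with a class at 0 UMIs set to 3. The arterial-gene nuclei held 327830, 205494 and 54224 UMIs together, so levels of a few CPM in them rest on few UMIs, most of all in the denervated library. The counts of 11 and 16 genes therefore do not show that the classes are alike. Aqp1 was higher in capillary nuclei in every library, by 1.45 (1.32 to 1.58), 1.03 (0.87 to 1.19) and 0.61 (0.36 to 0.88), and thus short of 2-fold in the denervated one. Genes above arterial-gene nuclei included Kirrel3, a cell adhesion protein, at 178 against 9.15 CPM in the untreated and 181 against 38.9 CPM in the sham library, and at 244 CPM against 0 UMIs in the denervated library. Il1r1, the interleukin-1 receptor, stood at 80.6, 61.1 and 147 CPM in capillary nuclei against 15.3, 4.87 and 0 CPM, the last with 0 UMIs. Genes below arterial-gene nuclei included Hey1, a Notch target of arterial endothelium, at 22.9, 18.4 and 35.9 CPM against 149, 77.9 and 239.7 CPM. They also included Fbln5, an elastic fibre protein, at 10.5, 33.9 and 25.1 CPM against 198, 214 and 111 CPM. The arterial list as a whole summed to 1385, 1259.9 and 1529 CPM in capillary nuclei and 3270.0, 2243 and 2785 CPM in arterial-gene nuclei, so arterial transcripts were present among the members at a lower level.

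Venous-gene nuclei, with a UMI of Vwf or Selp, numbered 17, 49 and 9, so their levels rest on few UMIs. Plvap, the diaphragm protein of fenestrae and caveolae, was at 22.3, 88.2 and 39.5 CPM in capillary nuclei against 1393, 868 and 1188 CPM in venous-gene nuclei. Il6st (the gp130 receptor subunit), Lrg1, Ehd4, Nuak1 and Fbn1 were also lower in capillary nuclei in each library. Btnl9 was higher in capillary nuclei, by 1.41 (0.48 to 2.54), 1.84 (0.79 to 3.16) and 1.89 (-0.61 to 7.20), the last interval including equality.

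Among capillary nuclei, Aqp1 had a higher dispersion index than the other capillary genes given here. The dispersion index, the variance of UMIs over nuclei divided by what counting at each nucleus's depth gives, had a median of 1.35, 1.35 and 1.33 over 431 genes in the 3 libraries. It was 3.14, 3.52 and 3.55 for Aqp1, against 1.70, 1.77 and 1.78 for Cd36 and 1.32, 1.36 and 1.26 for Gpihbp1. At a given relative spread the index rises with a gene's level. Cd36 was counted about as deeply as Aqp1, whereas Gpihbp1 was at a lower level, so nothing is read from its lower index. Of the 12 genes with the highest index, 8 were mitochondrial (mt-Co2 at 7.78, 24.60 and 7.91), and the others were Aqp1, Malat1, the pericyte gene Rgs5 at 2.90, 3.30 and 3.53 and the adipocyte lipid desaturase Scd1 at 2.49, 2.65 and 2.28. Rgs5 and Scd1 are transcripts of neighbouring cell types, and their part in the spread was not tested.

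The range of Aqp1 was followed after each nucleus had been thinned to 400 UMIs, which left out shallower nuclei. Of the untreated nuclei thinned in this way 599 had 0 and 492 had 3 or more Aqp1 UMIs, of the sham nuclei 563 and 270, and of the denervated nuclei 98 and 92. The other 639, 430 and 86 nuclei held 1 or 2 UMIs. The groups are cut from a count and are not given as types, and whether Aqp1 levels form 1 range or separate groups was not tested. Timp4 moved with Aqp1 in each library, at 492 CPM in nuclei without and 915 CPM in nuclei with 3 or more Aqp1 UMIs of the untreated library, 346 and 1028 CPM in the sham library and 332 and 788 CPM in the denervated library. Gpihbp1 was likewise higher in the nuclei rich in Aqp1, by 0.68 (0.37 to 0.99), 0.61 (0.27 to 0.94) and 1.40 (0.60 to 2.25) on the log2 scale, and Cd36 by 0.45 (0.33 to 0.57), 0.67 (0.52 to 0.81) and 0.64 (0.31 to 0.98). Emcn, an endothelial sialomucin, ran the other way, by -0.41 (-0.71 to -0.12), -0.88 (-1.35 to -0.44) and -0.98 (-2.23 to 0.17), the last including equality. Kitl was also lower in the nuclei rich in Aqp1, by -0.37 (-0.61 to -0.12), -0.31 (-0.64 to 0.02) and -0.44 (-1.18 to 0.27), with equality excluded in the untreated library. Car4 differed by -0.11, 0.02 and -0.09, with each interval including equality. Rgs5 differed by -0.46 (-1.06 to 0.13), 0.08 (-0.60 to 0.74) and -1.57 (-2.64 to -0.60). The adipocyte gene Scd1 differed by 0.06 (-0.09 to 0.20), 0.67 (0.40 to 0.95) and 0.22 (-0.06 to 0.50), and its interval excluded equality in the sham library.

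**Figure D3:**
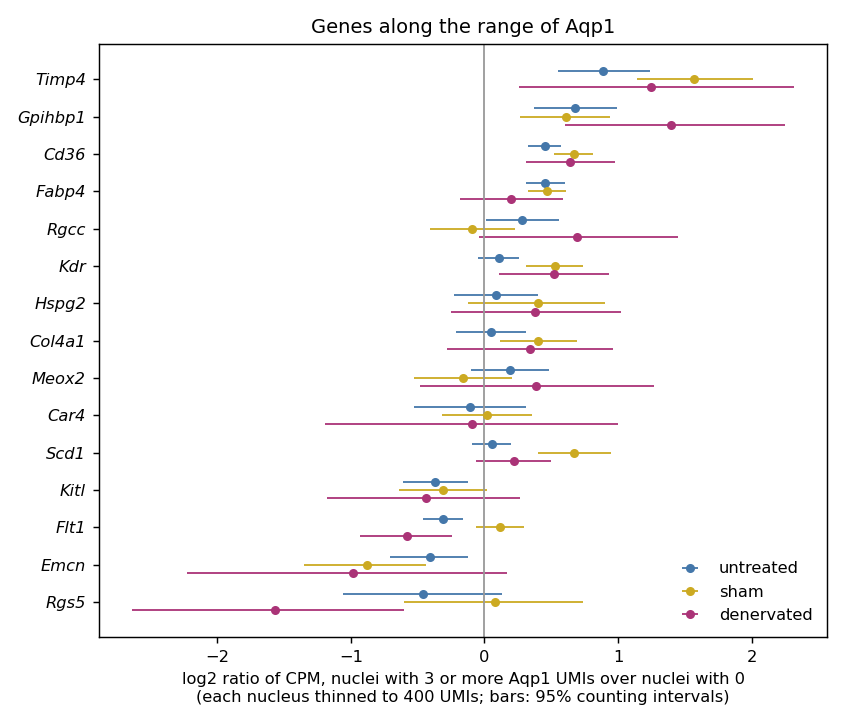
Log2 ratio of CPM between capillary nuclei with 3 or more and with 0 Aqp1 UMIs (each nucleus thinned to 400 UMIs), for 15 genes (rows) in the 3 libraries (colours), with exact 95% counting intervals as bars. Timp4, Gpihbp1 and Cd36 lie above 0 in each library, and Emcn lies below 0 with an interval that reaches past 0 in the denervated library.

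Denervation was read as genes past 2-fold in denervated against both untreated and sham capillary nuclei. Among genes of the vessel wall, Col15a1 (a basement membrane collagen), Nid2 and Lamb1 were called higher, and so were Cd34 and Mcam. Col15a1 was at 17.0 CPM (26 UMIs) in untreated, 33.9 (23.6 to 47.2, 35 UMIs) in sham and 183 (136 to 241, 51 UMIs) in denervated nuclei. The denervated level lay above both others, by 3.43 (2.72 to 4.17) and 2.43 (1.78 to 3.10) on the log2 scale. The share of nuclei with a Col15a1 UMI was 1.01%, 1.31% and 5.06% as deposited and 0.809%, 1.11% and 5.43% after thinning to 400 UMIs, with 446, 564 and 357 nuclei too shallow to thin. By CPM, Col15a1 was also highest in the denervated library in brown adipocyte and pericyte nuclei, at lower levels. It was at 7.30, 14.6 and 31.8 CPM in brown adipocyte nuclei, with a UMI in 0.997%, 1.76% and 2.38% of nuclei as deposited and in 0.179%, 0.318% and 0.900% after thinning. In pericyte nuclei it was at 4.73, 9.28 and 18.2 CPM, with 0.418%, 0.505% and 0.279% as deposited and 0% (which allows up to 0.667%), 0.0863% and 0.541% after thinning, from at most 6 nuclei with a UMI in a library. By CPM the higher denervated level was thus not particular to capillary nuclei, since brown adipocyte nuclei showed it too. The endothelial nuclei with an immediate early gene UMI held Col15a1 at 38.4, 43.7 and 287 CPM, highest in the denervated library. They come from the same 3 libraries and are no replicate of the members.

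The basement membrane list had 3 of 11 compared genes called higher (2.47% over all genes) and 0 lower (0.971%), and its median log2 ratio was 0.53 against untreated and 0.57 against sham, beside 0.04 and 0.08 over all genes compared. Nid2 (nidogen-2) was at 11.1, 10.7 and 46.7 CPM, and Lamb1 (a laminin chain) at 45.2, 38.8 and 93.3 CPM. Both were highest in the denervated library, where they rested on 13 and 26 UMIs, and Lamb1 was at 94.7, 161 and 71.6 CPM in brown adipocyte nuclei, above the capillary level in the untreated and sham libraries and below it in the denervated one. Hspg2 (perlecan) was at 742, 449.7 and 1102 CPM and Lama4 (the endothelial laminin chain) at 451, 201 and 653 CPM, above untreated by 0.57 (0.38 to 0.75) and 0.53 (0.29 to 0.77), short of 2-fold, and above sham by 1.29 and 1.70, past 2-fold with intervals off equality. Col4a1, a type IV collagen chain, was at 1191, 1264 and 1148 CPM with intervals that overlap. Col4a2, its partner chain, was at 801, 1038 and 1019 CPM, above untreated by 0.35 (0.16 to 0.54) and level with sham within counting error, at -0.03 (-0.22 to 0.16).

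Of 8 compared genes of a tip cell list, which holds markers of sprouting endothelium, 3 were called higher (2.47% over all genes) and 0 lower (0.971%), with medians of 0.86 and 1.37. The median against untreated was 0.41 at an endothelial sum of 5 or more and 0.24 when nuclei were thinned before the rule. They were Nid2 and Lamb1, which the basement membrane list also holds, and Apln, the ligand of the apelin receptor. Apln was at 10.5 (5.99 to 17.0, 16 UMIs), 10.7 (5.32 to 19.1, 11 UMIs) and 35.9 CPM (17.2 to 66.0, 10 UMIs), and the denervated interval begins inside the sham interval. Cxcr4 was at 32.8, 7.75 and 64.6 CPM, by 0.98 above untreated and thus short of 2-fold. Angpt2 and Dll4 were not past 2-fold, and Esm1 and Pgf had too few UMIs to compare. The cell-cycle list gave no reading, since 2 of its 10 genes had enough UMIs, and neither was called.

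Of the 224 genes, 74.1% in the untreated, 72.3% in the sham and 37.1% in the denervated library were higher in brown adipocyte than in capillary nuclei, beside 51.1%, 49.1% and 48.4% of all genes compared. Of the 88 lower genes 33, 33 and 66 were. Genes called for a low or a high capillary level in given libraries are bound to shift in this way, so these shares describe the calls and nothing is read from them. Ghr, the growth hormone receptor, was at 261, 335 and 912 CPM in capillary nuclei and at 2040.1, 3105 and 3805 CPM in brown adipocyte nuclei. Hp (haptoglobin) was at 51.1, 50.4 and 449 CPM in capillary and 147, 242 and 538 CPM in brown adipocyte nuclei. Tenm4, Mid1 and Acvr1c, also among the 12 genes highest in the denervated library, had the same order of classes. Of a 16-gene adipocyte list, of which 14 were compared, 1 gene (Ghr) was called higher (2.47% over all genes) and 0 lower (0.971%), and the list's summed level in capillary nuclei was 6506, 3165 and 8545 CPM, against 37703, 17167 and 36676 CPM in brown adipocyte nuclei. The part of adipocyte RNA in the calls was not tested.

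Among the 576 genes at least 2-fold above both adipocyte and pericyte nuclei in every library, a restriction made after the values were seen, 10 (1.74%) were higher and 6 (1.04%) lower in the denervated library, beside 2.47% and 0.971% over all genes, which is near the background. The 10 were Arl4c, Atp8b1, Cd34, Col15a1, Gimap9, Isg15, Pgm5, Rps6kl1, Tpm3-rs7 and Trpm3. Cd34, a sialomucin of endothelial and progenitor cells, was at 239 CPM (365 UMIs) in untreated, 209 (216 UMIs) in sham and 642 (179 UMIs) in denervated nuclei, by 1.43 (1.16 to 1.69) and 1.62 above the other libraries, and at 10.1, 7.75 and 19.1 CPM in brown adipocyte nuclei. The share of nuclei with a Cd34 UMI was 12.9%, 8.87% and 19.9% as deposited and 7.57%, 7.36% and 20.7% after thinning, against 1.64%, 1.05% and 1.83% as deposited and 0.357%, 0.212% and 0.628% after thinning in brown adipocyte nuclei. In pericyte nuclei Cd34 was at 7.10, 7.22 and 36.5 CPM, with a UMI in 0.222%, 0.173% and 1.08% of nuclei after thinning. By CPM the denervated library was thus highest in Cd34 in each of these classes, at lower levels than in capillary nuclei, with 5 pericyte nuclei behind the last. The 6 lower were Card10, Spns2, Tgtp2 and the mitochondrial mt-Cytb, mt-Nd2 and mt-Nd5. Spns2, which exports sphingosine 1-phosphate from endothelium, was at 79.3, 103 and 39.5 CPM. The mitochondrial share of the members was 9.50%, 13.4% and 5.57% in the untreated, sham and denervated libraries, lowest where these 3 genes were lowest, and its part was not tested. Between untreated and sham this share ran with mt-Cytb, at 12077, 18232 and 5104 CPM. It did not run with mt-Nd2, at 6869.6, 6159 and 2781 CPM, nor with mt-Nd5, at 2057, 1296 and 632 CPM. Mcam, an adhesion molecule of vessels, was at 51.8, 41.7 and 176 CPM in capillary nuclei, at 93.9, 125 and 142 CPM in brown adipocyte nuclei and at 525, 248 and 504 CPM in pericyte nuclei.

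The 12 genes with the strongest fall in denervated nuclei rested on 1 or 2 UMIs there, so their ratios carry wide intervals. Angptl4, the inhibitor of lipoprotein lipase, was at 29.5 CPM (45 UMIs), 102 (105 UMIs) and 3.59 (1 UMI), by -3.04 (-8.37 to -0.49) and -4.83 (-10.14 to -2.32). Against untreated this was -0.22 without the exclusion lists and 0.13 when nuclei were thinned before the rule. Of these 12 genes, 11 were short of 2-fold under at least 1 alternative, as were 6 of the 12 named for a higher denervated level. Tril was at 49.2, 27.1 and 3.59 CPM, by -3.78 (-9.10 to -1.25) and -2.92 (-8.27 to -0.32). Better counted was Emcn, at 920.1 CPM (873 to 969.6), 737 (685 to 791) and 485 (406 to 573), lowest in the denervated library by -0.93 (-1.19 to -0.67) and -0.60 (-0.88 to -0.34), short of 2-fold.

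Of the 11 compared genes of the capillary list, 0 were called in either direction in denervated nuclei, beside 2.47% higher and 0.971% lower over all genes. In lists of this size a count of 0 is near those shares and is no result about the list, which holds for each list below. The capillary list had a median log2 ratio of -0.36 against untreated and -0.10 against sham. Over the alternatives these medians ranged from -0.45 to 0.17 and from -0.22 to 1.15, so the sign of both turned. In 8 of the 11 the interval against untreated lay below 0. Cd36 was lower by -0.64 (-0.73 to -0.54) and -0.43 (-0.53 to -0.33), and Aqp1 by -0.17 (-0.26 to -0.08) against untreated while 0.15 (0.05 to 0.25) above sham. The ratios of both to untreated turned sign when an ambient profile was subtracted (0.17 for Cd36 and 1.0 for Aqp1), and that of Aqp1 also when nuclei were thinned before the rule (0.24). The ratio of Cd36 over sham turned sign under the same subtraction, and that of Aqp1 over sham with nuclei weighted equally. The profile was summed over barcodes with under 200 genes, whose content was not tested. It removed 89.9% of the denervated members' UMIs, so this is a coarse check. The pan-endothelial list had a median of -0.03 and 0.02, with 0 of 12 called. Cdh5 (VE-cadherin) was at 794, 789 and 793 CPM, the same in the 3 libraries within counting error. The Notch list (0 of 11), the VEGF, Tie and PDGF list (0 of 8), the junction list (0 of 10), the flow and nitric oxide list (0 of 8), the solute transport list (0 of 10), the hypoxia list (0 of 5), the arterial list (0 of 8), the bone morphogenetic protein list (0 of 11), the glucocorticoid and heat-shock lists (0 of 8 each) and the list of 22 endothelial transcription factors likewise had 0 genes called in the denervated library. Of the venous list 1 of 5 was called higher, Lrg1, at 17.0, 36.8 and 82.5 CPM in capillary and 45.8, 43.5 and 87.5 CPM in brown adipocyte nuclei. An inflammation list had medians of 0.84 and 0.39 with 0 of 6 called, among them Nfkbia, the inhibitor of NF-kappaB, at 227, 190.0 and 398 CPM. Over the alternatives its median ranged from -0.58 to 0.98 against untreated, so its sign turned, and from 0.11 to 0.75 against sham.

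**Figure D4:**
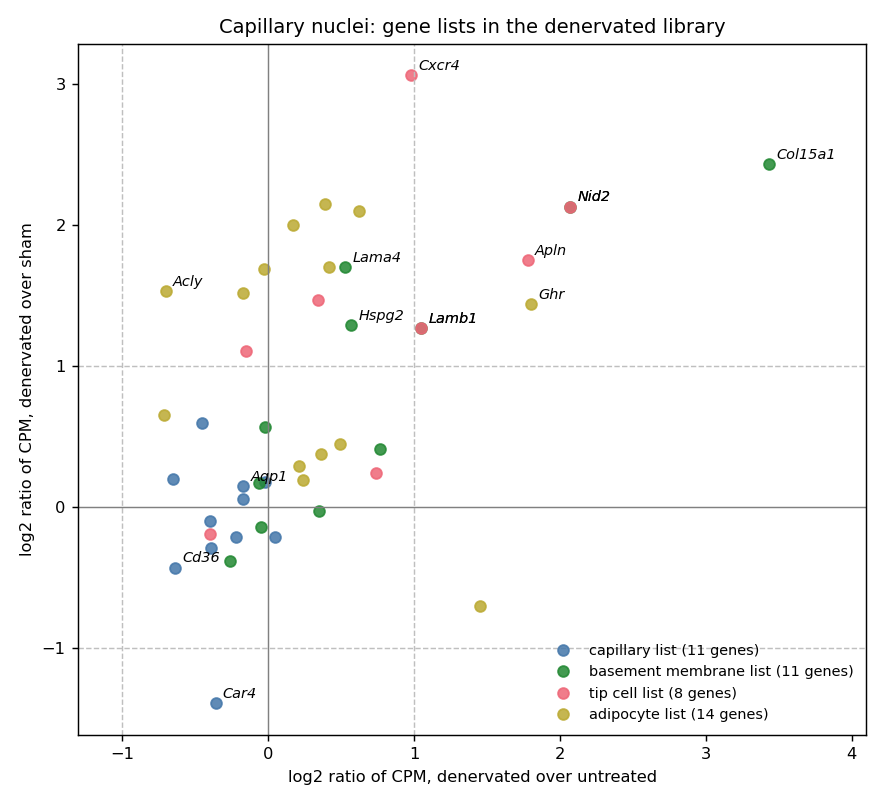
Log2 ratio of CPM in capillary nuclei, denervated over untreated (x axis) against denervated over sham (y axis), for the compared genes of 4 lists, with dashed lines at 2-fold. The axes share the denervated library. Col15a1, Nid2, Lamb1 and Apln lie past both lines, Nid2 and Lamb1 belong to the basement membrane and the tip cell lists and overlie each other, the capillary list lies within 2-fold except Car4 on the y axis, and Ghr of the adipocyte list lies past both lines.

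Sham and untreated capillary nuclei also differed, by a single ratio rather than the pair of ratios required for denervation, so the counts are not set against each other. Of 9061 genes, 354 (3.91%) were higher and 352 (3.88%) lower in the sham library. Of the 576 genes above adipocyte and pericyte nuclei in every library, 29 (5.03%) were higher and 19 (3.30%) lower. Zbtb16, a transcription factor gene induced by glucocorticoids, was at 26.2 CPM (18.7 to 35.7) in untreated, 419.6 (381 to 461) in sham and 39.5 (19.7 to 70.6) in denervated nuclei. Its sham interval lies far above both others, which overlap. The share of nuclei with a Zbtb16 UMI was 1.61%, 17.7% and 1.58% as deposited and 0.694%, 13.1% and 1.45% after thinning. In brown adipocyte nuclei it was 9.15%, 50.5% and 11.9% as deposited and 2.43%, 20.8% and 5.52% after thinning, so the sham library was high in Zbtb16 beyond the capillary nuclei. Beside 3.91% higher and 3.88% lower over all genes, of 8 glucocorticoid-responsive genes 4 were higher and 0 lower, with a summed level of 478, 994 and 549 CPM. Zbtb16 is 1 of these 8 and, at the levels given above, a large part of the sum in the sham library. The interval of sham over untreated lay above 0 in 5 of the 8 and below 0 in 1. Of 8 heat-shock genes 3 were higher and 0 lower, with 3173, 6021 and 3675 CPM. Hspa1b, the inducible chaperone, was at 352, 1387 and 459 CPM.

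Other genes called higher in sham capillary nuclei, chosen after their values were seen except Car4 and Plvap of the lists, were Car4, the luminal carbonic anhydrase of capillaries, at 485, 985 and 377 CPM, Kank3, S1pr1 (the sphingosine 1-phosphate receptor) at 206, 430.3 and 212 CPM, Plvap, and the major histocompatibility genes H2-Q6, H2-Q7 and H2-T23. H2-Q6 was at 23.6, 184 and 43.1 CPM, and since its reads can be shared with near-identical neighbours such as H2-Q7 its level is uncertain. Steap4, Meg3 and Cyp1a1 were the others of the 5 with the largest rise, and were not among the 576 genes above adipocyte and pericyte nuclei.

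Of 11 compared genes of bone morphogenetic protein signalling, 3 were lower and 0 higher in sham nuclei, beside 3.88% and 3.91% of all genes, with a median of -0.44 beside -0.04. They were Id1, Id3 and Atoh8, known as targets of the pathway. Id1 was at 210.4 CPM (188 to 235), 52.3 (39.3 to 68.3) and 266 (209 to 333), and Id3 at 342, 96.9 and 233 CPM. Atoh8 was at 55.7, 10.7 and 50.2 CPM. In all 3 genes the sham level lay below both other libraries without overlap of the intervals. Klf2, the transcription factor of laminar flow, was at 429 (397 to 463), 153 (130.2 to 179) and 559.9 CPM (475 to 655), and the sham library was again lowest. Ppp1r3b and Hk2, of glycogen and glucose metabolism, were at 405, 38.8 and 388 CPM and 92.4, 13.6 and 96.9 CPM, and Col27a1 and Tusc5 were also among the 5 with the largest fall. Ppp1r3b, Hk2, Col27a1 and Tusc5 were not among the 576 genes at least 2-fold above both adipocyte and pericyte nuclei in every library. Of the 14 compared genes of the adipocyte list, 8 were lower and 1 higher in sham nuclei, beside 3.88% and 3.91% of all genes. Fasn was at 838, 254 and 822 CPM in capillary nuclei and 5557, 1468 and 4099 CPM in brown adipocyte nuclei, and both classes were lowest in the sham library. The part of adipocyte RNA was not tested.

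At the limit of the rule, nuclei with an endothelial sum of 2 UMIs, which were left out, numbered 81, 198 and 128, and those with 3 UMIs, which were kept, numbered 128, 218 and 96. Aqp1 was at 2523, 3340.3 and 1926 CPM in the former and 2919.9, 3259 and 2488 CPM in the latter, and Cd36 at 3299, 4593 and 2293 CPM in the former and 4527, 4592 and 2830.1 CPM in the latter. For Aqp1 and Cd36, levels just inside and just outside the limit were close in the sham library and higher inside it in the other libraries. Fabp4 was at 2652, 4932 and 2545 CPM just outside and 2900.3, 5311 and 2208 CPM just inside. It was thus lower inside the limit in the denervated library. Of the markers of other cells, those of adipocytes were plentiful in the members. The adipocyte list summed to 6506, 3165 and 8545 CPM, beside 6997, 6624 and 6478 CPM for the pan-endothelial list, so that in the denervated library it was the larger sum. The immune list summed to 22.3, 66.9 and 28.7 CPM, the fibroblast list to between 23.6 and 43.1 CPM with Dpp4 at 0, the Schwann cell list to 23.6, 28.1 and 25.1 CPM, the mural list to 296, 410.0 and 402 CPM, the lymphatic list to 130.4, 109 and 205 CPM and the venous list to 518, 531 and 589 CPM with Ackr1 at 0. A UMI of an adipocyte gene of the rule was present in 29.7% to 43.8% of the members of a library.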

How the data were processed

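The authors deposited raw UMI counts per gene and barcode of 3 single-nucleus libraries. Per the file headers, the untreated and denervated counts came from the BD Rhapsody pipeline with GRCm38 and GENCODE vM19 and UMI error correction, and the sham table had no header. Per the labels, Seurat 4.0.6 was used. The DIEM and decontX steps of the study were not repeated, so debris and ambient RNA remain in these values. Per the study's methods, doublet nuclei were gated out at the sort. The study later also removed, as doublets, nuclei that mixed endothelial, adipocyte and stromal markers, and dropped contaminating clusters. These later steps were not repeated and no caller was run, so doublets may remain among the members.

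Members' UMIs were summed and scaled to CPM. Ratios between libraries used genes with at least 30 UMIs over the 3 libraries, and ratios between classes at least 50. Zeros were bounded at 3 counts. Named genes were the 12 highest in identity, up to 6 highest and lowest against arterial-gene and venous-gene nuclei, the 12 highest and lowest in denervation and the 5 in sham (at least 60 UMIs), the 12 most dispersed, and members of 26 lists. Members and lists were chosen with earlier results of these data known. Positions came from GENCODE vM21. Alternatives covered the member rule, depth, scaling, ambient RNA and floors. Scripts were tested on simulated data. Python 3.11.15, numpy 2.4.6 and scipy 1.17.1 were used.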

Additional observations from a re-analysis of the deposited data

How the results depend on the processing

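No alternative has a replicate behind it, since each condition is 1 library, and for the same reason no paired analysis was possible. The number of untreated, sham and denervated members was 1078, 349 and 74 with 500 detected genes, 4466, 4337 and 1528 without the exclusion lists, and for untreated and sham 1180 and 1215 where adipocyte and mural sums were both 0. It was 1092 in sham at 10% mitochondrial UMIs, and in denervated 409 at an endothelial sum of 5 and 327 when thinned to 400 UMIs before the rule. Genes above adipocyte and pericyte nuclei numbered 329 with 500 detected genes.

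Of the 224 higher and 88 lower genes in denervated nuclei, 62 and 6 were also called with 500 detected genes. The higher calls numbered 368 without exclusion lists and 144 with adipocyte and mural sums of 0. After subtraction of an ambient profile, which removed 64.5%, 77.6% and 89.9% of the members' UMIs 798 were higher and 1188 lower, among them 79 of the 224 and 25 of the 88. Without the sham library, an alternative added after seeing the data, 381 were higher and 176 lower, and among endothelium-enriched genes, also added, 10 and 6. The higher calls were 71.8% of all denervated calls, 61.8% under median ratio scaling, 57.8% without mitochondrial genes in the total and 40.2% after ambient subtraction. For sham over untreated, the higher calls numbered 598 without exclusion lists, 226 with adipocyte and mural sums of 0 and 549 at a floor of 10 UMIs, and 805 were higher and 793 lower after ambient subtraction, with 29 and 19 among endothelium-enriched genes. The higher share was 50.1%, and ranged from 42.6% with adipocyte and mural sums of 0 to 62.9% under median ratio scaling, with 61.2% without exclusion lists.

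Of 1855 log2 ratios recomputed for named genes, 81 changed sign at 2 decimals. The following are those whose interval had excluded equality as first reported, and Nrp2 over sham, whose sign changed before rounding only. With 500 detected genes they were Cntn4 (-0.33) and Klf2 (-0.20) for denervated over untreated, Gpihbp1 (0.25) for denervated over sham and Mid1 (0.10) for sham over untreated. Gpihbp1 over sham was 0.01 at 10% mitochondrial UMIs, and Meg3 over sham was 0.78 with adipocyte and mural sums of 0. With thinning before the rule, denervated over untreated was 0.24 for Aqp1, 0.13 for Angptl4, 0.20 for Nbeal2 and -0.06 for Nrp2, denervated over sham was 0.04 for Gpihbp1 and -0.00 for Nrp2, and sham over untreated was 0.02 for 4930402D18Rik. After ambient subtraction, denervated over untreated was 1.0 for Aqp1, 0.17 for Cd36, 0.33 for Fabp4, 0.49 for Id3 and -0.28 for Nrp2, denervated over sham was 0.75 for Cd36, 0.22 for Fabp4, 1.19 for Gpihbp1 and -0.27 for Nrp2, and sham over untreated was -0.13 for Gpihbp1 and 0.01 for Meox2. With nuclei weighted equally, Aqp1 over sham was -0.08. Causes of these shifts were not tested. Ratios of Col15a1 stayed within 2.87 to 6.17 over untreated and 2.14 to 4.32 over sham. Of 712 recomputed medians of gene lists 114 moved, 37 of them after ambient subtraction. Medians of the tip cell list ranged from 0.24 to 1.66 for denervated over untreated and from 0.96 to 1.59 for denervated over sham, and those of the basement membrane list from 0.36 to 0.97 and from 0.39 to 1.20. Of the 12 genes named for a higher denervated level, Hp, Tenm4, Col15a1, Mid1, Mcam and Wdr89 were past 2-fold against both libraries under each alternative that gave a value. Gm26694, Tnip1, Acvr1c, Emp1, Slc17a9 and Cntn4 fell short under 1 or 2, with lowest ratios over sham of 0.69, 0.60, 0.38 and 0.60 for the first 4 and 0.03 for Cntn4, and over untreated of 0.95 for Slc17a9. Of the 12 named for a lower level, 4930402D18Rik alone was past 2-fold under each, and 9 of the others fell short without exclusion lists. The depth of the denervated members, 278627 UMIs, limits genes under about 30 UMIs.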
